A study of Homo sapiens with 16 samples.

Results

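SLC39 genes encode the ZIP family of membrane transporters, which carry zinc into the cytosol from outside the cell or out of organelles. The 10 members described here were SLC39A1, SLC39A3, SLC39A4, SLC39A6, SLC39A7, SLC39A8, SLC39A9, SLC39A10, SLC39A13 and SLC39A14, picked by name from 59609 genes in each of 2 RNA tables, which hold 14 SLC39A genes in all. In the first RNA experiment, samples labelled Huh7, a human hepatocellular carcinoma line, received sorafenib (an oral multikinase inhibitor given for liver cancer, 3 samples) or its solvent DMSO (3 samples). In the second, samples with the same label overexpressed the metallothionein MT1G (MT1G-OE, 3 samples) or carried an empty vector (Vec, 3 samples). ATAC-seq, which marks open chromatin by transposase insertion, covered 2 sorafenib samples (replicates 3 and 4 in their titles) and 2 DMSO samples (replicates 1 and 2). The labels gave no dose, no treatment time and no promoter or clone for the MT1G construct. They also did not say that replicates were separate cultures, so p-values measure only the spread between these samples, which may be technical.

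On GRCh38.p14 the genes lie at chr2:195613029-195737700 (SLC39A10), chr18:36108531-36129340 (SLC39A6), chr14:69398384-69462390 (SLC39A9) and chr4:102251041-102345482 (SLC39A8). SLC39A14 lies at chr8:22367278-22434129, SLC39A4 at chr8:144412414-144416844, SLC39A1 at chr1:153959110-153968184, SLC39A3 at chr19:2732524-2740076 and SLC39A13 at chr11:47407276-47416500.

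Cells hold very little free zinc. ZIP transporters raise cytosolic zinc, SLC30 (ZnT) transporters lower it by export or by filling vesicles, and metallothioneins bind it. The transcription factor MTF1 senses zinc and switches on metallothionein genes and SLC30A1 through short DNA motifs called metal response elements. In the liver, SLC39A14 is known as a transporter of zinc, manganese and iron that is not bound to transferrin, and SLC39A8 carries zinc and manganese.

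Each RNA library held between 16549330 and 26781600 reads counted in genes. MT1G itself had 0 reads in all 6 control libraries, between 158 and 194 normalized read counts under sorafenib and between 130.2 and 179 with MT1G-OE. Of 24 markers of hepatocytes and Huh7 cells, 18 had at most 50 reads over the 12 RNA libraries, and ALB, APOB, APOH, GPC3 and FOXA2 had 0. HNF4A, FOXA1, CPS1, RBP4, KRT8 and KRT18 had more than 1000 each. The cells are therefore called cells labelled Huh7.

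The promoters of the 4 members with the largest falls under sorafenib are printed because each carried an ATAC-seq peak in all 4 libraries. They are the 250 bases before the first listed start of each gene (GRCh38.p14), written 5′ to 3′ on the strand of the gene. Listed starts are those of the promoter windows used. For SLC39A10 the first listed start, at 195656958, lies inside the gene span, which begins at 195613029. Capitals mark a match to the metal response element core. The windows lie at chr2:195656708-195656957 on the plus strand (SLC39A10) and chr18:36129341-36129590 on the minus strand (SLC39A6). The other 2 lie at chr14:69398134-69398383 on the plus strand (SLC39A9) and chr4:102345483-102345732 on the minus strand (SLC39A8).
SLC39A10: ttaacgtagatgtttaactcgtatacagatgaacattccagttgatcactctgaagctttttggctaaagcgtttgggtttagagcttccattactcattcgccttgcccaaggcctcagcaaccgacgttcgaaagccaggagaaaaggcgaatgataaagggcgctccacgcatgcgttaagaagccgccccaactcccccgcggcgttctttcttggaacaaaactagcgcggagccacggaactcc
SLC39A6: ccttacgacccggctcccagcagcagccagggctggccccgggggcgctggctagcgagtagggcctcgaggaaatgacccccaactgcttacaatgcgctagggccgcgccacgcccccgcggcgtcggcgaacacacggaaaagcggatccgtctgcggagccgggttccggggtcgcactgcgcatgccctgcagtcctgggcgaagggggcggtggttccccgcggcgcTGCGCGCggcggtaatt
SLC39A9: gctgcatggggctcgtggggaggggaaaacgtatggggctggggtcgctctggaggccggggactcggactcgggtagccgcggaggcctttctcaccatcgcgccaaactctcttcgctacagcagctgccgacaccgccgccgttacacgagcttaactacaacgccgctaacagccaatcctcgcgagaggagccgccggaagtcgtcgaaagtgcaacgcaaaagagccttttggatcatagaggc
SLC39A8: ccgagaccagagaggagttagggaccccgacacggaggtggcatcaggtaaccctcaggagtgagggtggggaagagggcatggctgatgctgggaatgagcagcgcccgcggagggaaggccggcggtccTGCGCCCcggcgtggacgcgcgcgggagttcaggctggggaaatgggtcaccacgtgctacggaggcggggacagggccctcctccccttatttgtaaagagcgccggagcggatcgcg
The SLC39A8 window held TGCGCCC with its first base 119 bases before the start, and the SLC39A6 window held TGCGCGC with its first base 17 bases before the start. The SLC39A10 and SLC39A9 windows held no match to these letters.

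With sorafenib, 6 of the 9 members that could be tested fell and none rose. SLC39A10 fell to 47.9% of its DMSO level, SLC39A6 to 55.4%, SLC39A9 to 61.2%, SLC39A8 to 62.4%, SLC39A14 to 73.5% and SLC39A1 to 78.9%. The falls of SLC39A10, SLC39A6, SLC39A9, SLC39A8 and SLC39A14 passed in all 13 alternative fits. SLC39A3, SLC39A4 and SLC39A13 did not pass the test, and SLC39A7 was listed at 0 in every library. The test was limma on log2(normalized read count + 1) with Benjamini-Hochberg adjustment over all 14915 tested genes, at a threshold of 0.05. Sorafenib changed a large share of all genes: 35.8% of tested genes fell, 34.4% rose and 70.3% changed in either direction. The 6 of 9 members that changed are near that last share. The median log2 change was -0.44 over the 9 members and -0.021 over all tested genes. In these bulk samples, fewer cells of a type and less RNA per cell cannot be told apart.

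SLC39A10 and SLC39A6, both zinc importers of the cell surface, had the largest falls among the members. SLC39A10, which can pair with SLC39A6 at the plasma membrane, had 959, 937 and 858 normalized read counts in the 3 sorafenib libraries and 1850.3, 2065 and 1829 in the 3 DMSO libraries. The highest sorafenib library stood far below the lowest DMSO library. The means were 918 ± 53.3 and 1915 ± 130.4 (SD, n = 3 each), a log2 change of -1.06 (SE 0.0703, 95% interval -1.21 to -0.91, limma adjusted p = 1.38e-09). Of all tested genes, 6.09% fell further. SLC39A6, also named LIV-1 and first studied as an oestrogen-regulated gene of breast cancer, had 656, 691 and 685 normalized read counts under sorafenib and 1259.8, 1319.7 and 1089 with DMSO. The groups were again apart, and the DMSO libraries were spread more widely than the sorafenib libraries. The log2 change was -0.85 (SE 0.0779, 95% interval -1.01 to -0.68, limma adjusted p = 7.05e-08).

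Both zinc and manganese carriers fell as well. SLC39A8 had 870.1, 892 and 921 normalized read counts in the sorafenib libraries and 1470.1, 1459 and 1369 with DMSO. All 3 treated libraries were below all 3 controls, and the log2 change was -0.68 (SE 0.0649, 95% interval -0.82 to -0.54, limma adjusted p = 1.12e-07). SLC39A14 had 4209, 4404 and 4277 normalized read counts under sorafenib and 6002, 5831 and 5713 with DMSO. Replicates of this gene lay close together in both groups. Its log2 change was -0.44 (SE 0.0544, 95% interval -0.56 to -0.33, limma adjusted p = 1.96e-06), and 25.2% of tested genes fell further.

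Among members placed in the secretory pathway the outcome differed from gene to gene. SLC39A9, a transporter of the Golgi and plasma membrane, had 733, 705 and 732 normalized read counts under sorafenib and 1211, 1189.6 and 1145 with DMSO. The groups did not overlap, and the log2 change was -0.71 (SE 0.0662, 95% interval -0.85 to -0.57, limma adjusted p = 8.80e-08). SLC39A13, an intracellular zinc transporter needed for connective tissue, had 1379.9, 1199 and 1307 with sorafenib and 1253, 1211 and 1329 with DMSO. Those groups overlapped, with a log2 difference of 0.03 (95% interval -0.11 to 0.18, limma adjusted p = 0.682). SLC39A13 shares 2007 bp with the antisense gene SLC39A13-AS1, and whether reads were counted by strand is not given in the sources used here.

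Of the remaining surface importers, 1 passed the test with sorafenib and 2 did not. SLC39A1, a widely expressed zinc importer, had 169, 160.4 and 157 normalized read counts under sorafenib and 202, 175 and 238 with DMSO. The groups did not overlap, but the lowest DMSO library was close to the highest sorafenib library. The log2 change was -0.33 (SE 0.124, 95% interval -0.59 to -0.07, limma adjusted p = 0.0261). This call was lost with DESeq2 on recovered reads (DESeq2 adjusted p = 0.0672) and on leaving out sorafenib library 2 or 3 or DMSO library 1 or 3 (limma adjusted p = 0.0631, 0.0705, 0.0567 and 0.124 in that order). The authors' deposited table gave SLC39A1 an adjusted p of 0.0906. SLC39A1 also overlaps CREB3L4 by 698 bp, and CREB3L4 had 2223 reads over the 6 libraries against 1104 for SLC39A1.

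SLC39A4, the importer of dietary zinc in the intestine, had 369, 273 and 288 normalized read counts under sorafenib and 304, 332 and 361 with DMSO. The sorafenib libraries spanned the whole DMSO range, and the log2 difference was -0.11 (95% interval -0.35 to 0.13, limma adjusted p = 0.410). SLC39A3, another zinc importer, had 442, 421 and 429 with sorafenib and 390.3, 438 and 470.4 with DMSO. Here the sorafenib libraries lay inside the DMSO range, with a log2 difference of -0.00215 (95% interval -0.19 to 0.18, limma adjusted p = 0.984). The test missing its threshold does not show that these levels were the same, and the intervals give the sizes still allowed.

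**Figure D1:**
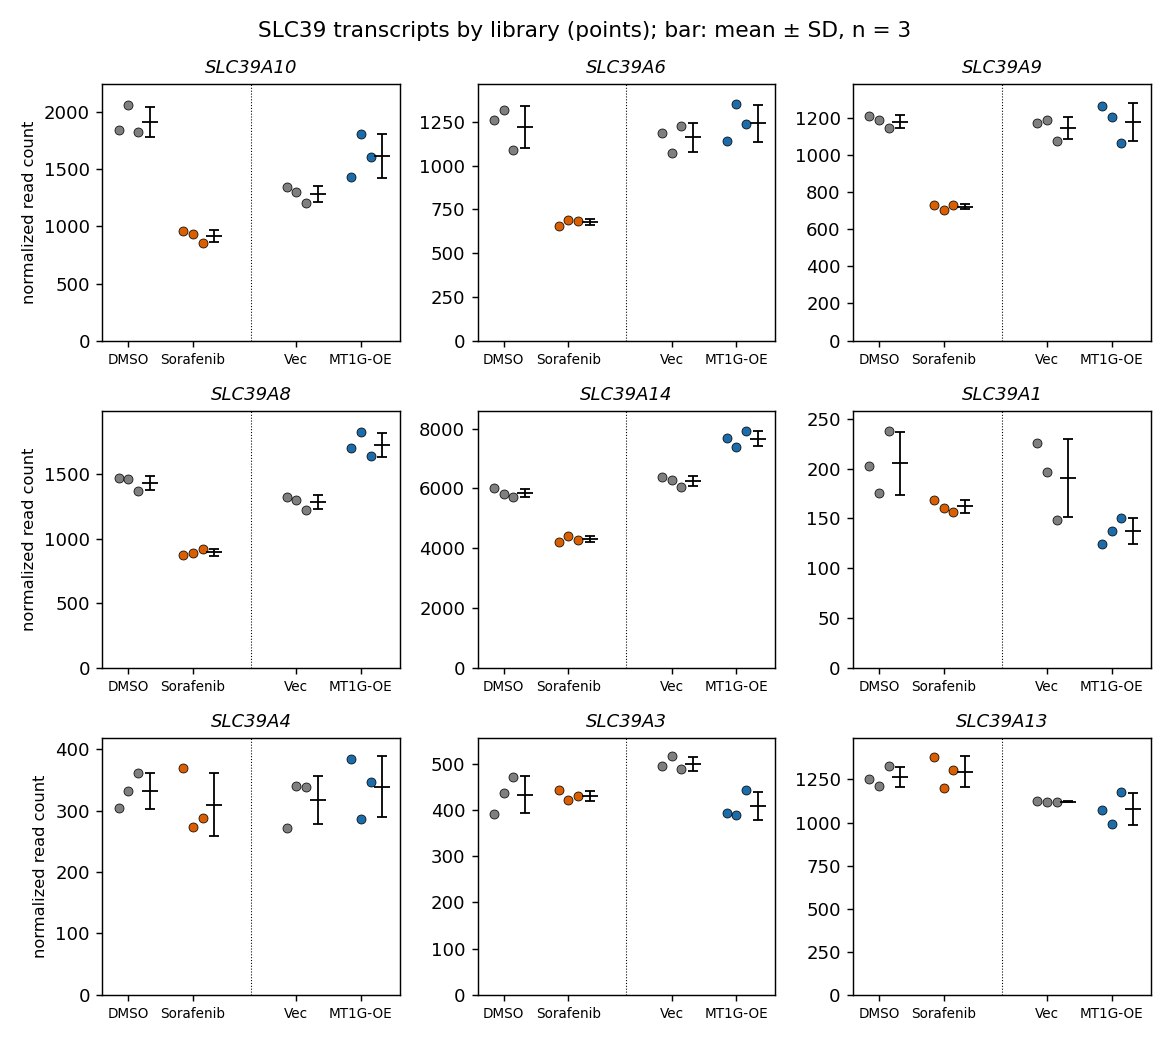
Normalized read counts (vertical axes, starting at 0) of the 9 SLC39 members with reads, 1 point per library, with bars for mean ± SD (n = 3); the dotted line parts the sorafenib experiment from the MT1G experiment. In 6 panels, those of SLC39A10, SLC39A6, SLC39A9, SLC39A8, SLC39A14 and SLC39A1, all sorafenib points lie below all DMSO points.

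With MT1G overexpression, 3 of 9 tested members rose and 2 fell. SLC39A8, SLC39A10 and SLC39A14 rose to 134%, 126% and 123% of their vector levels, and SLC39A1 and SLC39A3 fell to 72.1% and 81.7%. SLC39A4, SLC39A6, SLC39A9 and SLC39A13 did not pass the test. Of all 13914 genes tested in this experiment, 22.8% changed, 11.5% upward and 11.3% downward. The median log2 change was 0.09 over the 9 members and -6.58e-05 over all tested genes.

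SLC39A8 had the largest rise among the members, with 1703, 1830.4 and 1644 normalized read counts with MT1G-OE and 1323, 1302 and 1225 with vector. All 3 MT1G-OE libraries were above all 3 vector libraries. The log2 change was 0.43 (SE 0.0818, 95% interval 0.26 to 0.60, limma adjusted p = 0.000871), and it passed the threshold in all 13 alternative fits. SLC39A14, the other manganese carrier, had 7699.6, 7405 and 7913 with MT1G-OE and 6369, 6288 and 6048 with vector. These groups were also apart, with a log2 change of 0.30 (SE 0.0742, 95% interval 0.14 to 0.45, limma adjusted p = 0.00664). Without vector library 3 the limma adjusted p of SLC39A14 was 0.0604.

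SLC39A10 had 1431, 1812 and 1608 normalized read counts with MT1G-OE and 1345, 1304 and 1209.9 with vector. The groups did not overlap, but the MT1G-OE libraries were widely spread (1617 ± 190.4 against 1287 ± 69.5, SD, n = 3 each). The log2 change was 0.32 (SE 0.0918, 95% interval 0.13 to 0.52, limma adjusted p = 0.0149). The call was lost without MT1G-OE library 2, vector library 2 or vector library 3 (limma adjusted p = 0.0574, 0.0504 and 0.0974). SLC39A6, its partner, had 1141, 1351 and 1237 with MT1G-OE and 1185, 1072 and 1227 with vector. Those ranges overlapped, with a log2 difference of 0.10 (95% interval -0.09 to 0.28, limma adjusted p = 0.465).

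Both falls with MT1G-OE were close to the threshold. SLC39A1 had 124, 137 and 150.0 normalized read counts with MT1G-OE and 226, 197 and 148 with vector. The groups overlapped at 1 vector library, and the log2 change was -0.45 (SE 0.158, limma adjusted p = 0.0436). SLC39A3 had 393, 388 and 444 with MT1G-OE and 495, 517 and 488 with vector. Its groups did not overlap, and the log2 change was -0.29 (SE 0.101, limma adjusted p = 0.0409). Of 13 alternative fits, 6 lost the SLC39A1 call and 10 lost the SLC39A3 call. Leaving out a single library lost the SLC39A1 call for MT1G-OE 1 or 2 and vector 1 or 2 (limma adjusted p = 0.131, 0.109, 0.222 and 0.137). The SLC39A3 call was lost without MT1G-OE 1 or 2 or any vector library (limma adjusted p = 0.0801, 0.0850, 0.0997, 0.172 and 0.106). In the authors' deposited table the adjusted p was 0.0697 for SLC39A1 and 0.0687 for SLC39A3.

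The Golgi and vesicle members did not pass the test with MT1G-OE. SLC39A9 had a log2 difference of 0.04 (95% interval -0.15 to 0.22, limma adjusted p = 0.806), SLC39A13 one of -0.06 (95% interval -0.24 to 0.12, limma adjusted p = 0.666), and the intestinal importer SLC39A4 one of 0.09 (95% interval -0.17 to 0.36, limma adjusted p = 0.636). In 4 of the 9 members the groups did not overlap, beside 39.4% of all tested genes. With sorafenib that count was 6 of 9, beside 73% of all tested genes.

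**Figure D2:**
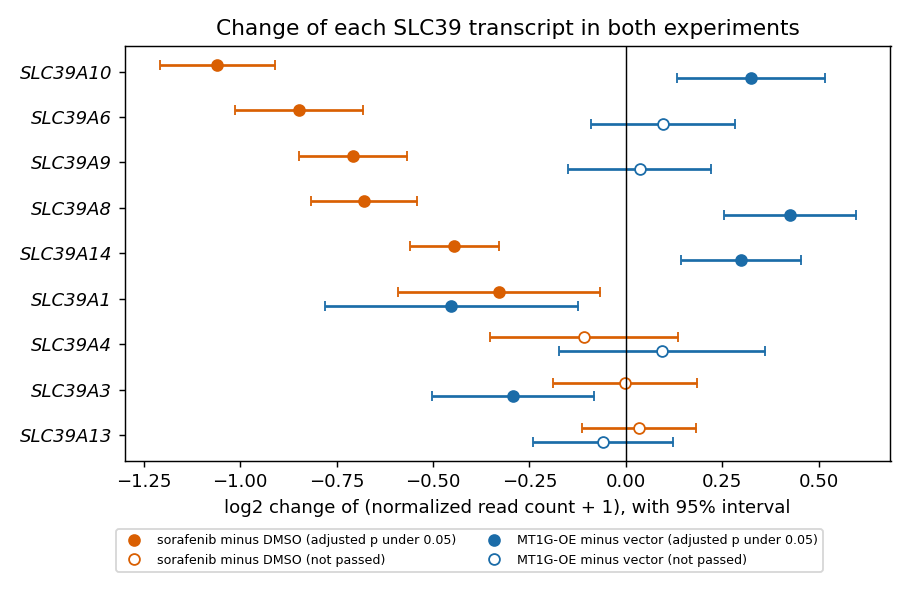
Change in log2(normalized read count + 1) with its 95% interval (horizontal axis) for 9 SLC39 members in the sorafenib experiment (orange) and the MT1G experiment (blue); filled points passed the limma threshold of 0.05. SLC39A10, SLC39A8 and SLC39A14 have filled points on opposite sides of 0, and the points of SLC39A1 lie below 0 in both.

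The difference between both responses was tested directly in 1 limma fit over all 12 libraries, as the sorafenib change minus the MT1G change. It passed for 5 of 9 members, beside 54.3% of the 13748 genes tested in both tables. The difference was -1.38 for SLC39A10 (95% interval -1.63 to -1.14, limma adjusted p = 3.31e-09) and -1.10 for SLC39A8 (-1.31 to -0.90, limma adjusted p = 5.07e-09). It was -0.94 for SLC39A6 (-1.19 to -0.70, limma adjusted p = 9.61e-07), -0.74 for SLC39A14 (-0.92 to -0.57, limma adjusted p = 1.74e-07) and -0.74 for SLC39A9 (-0.96 to -0.52, limma adjusted p = 5.04e-06). All 5 were lower under sorafenib relative to MT1G-OE, and these 5 passed in all 19 alternative fits. SLC39A1, called lower in both experiments but not in all alternative fits of either, had a difference of 0.12 (-0.31 to 0.56, limma adjusted p = 0.639). For SLC39A3 the difference was 0.29 (0.03 to 0.56, limma adjusted p = 0.0589), and 4 of the 19 alternative fits passed the threshold. SLC39A4 and SLC39A13 did not pass (limma adjusted p = 0.366 and 0.492). A fall with sorafenib together with a rise with MT1G-OE was seen in SLC39A8, SLC39A10 and SLC39A14, 3 of 9 members, beside 610 of 13748 genes (4.44%).

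**Figure D3:**
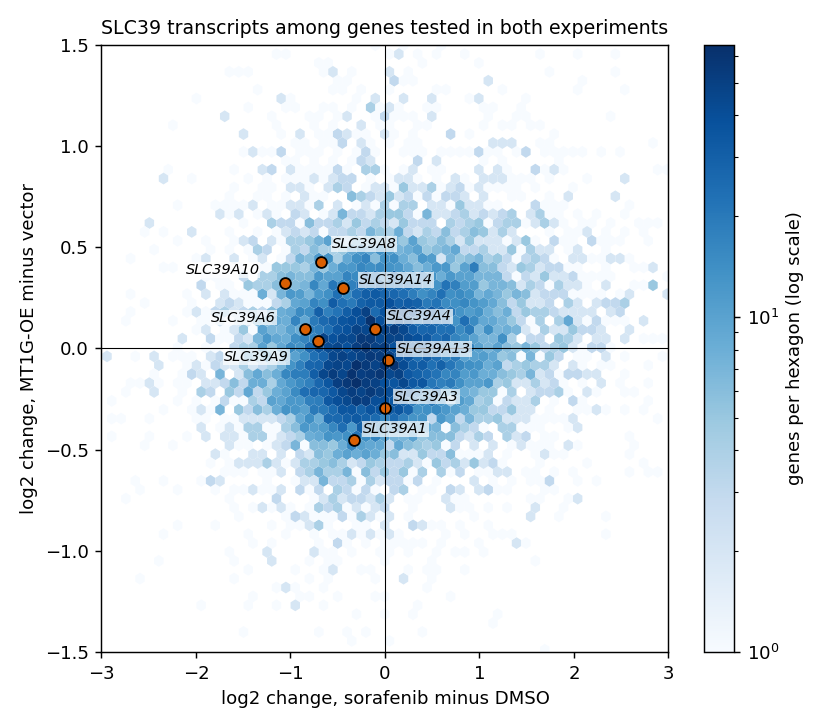
Log2 change with sorafenib (horizontal axis) against log2 change with MT1G-OE (vertical axis) for genes tested in both experiments; hexagons are coloured by the number of genes on a log scale, 230 genes lie outside the axes, and orange points are the SLC39 members. SLC39A10, SLC39A8 and SLC39A14 sit in the upper left, and SLC39A1 in the lower left.

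Among the genes closest in pattern to SLC39A10 over the 12 libraries were MBTPS2 and EID1, at Euclidean distances of 0.199 and 0.239 between log2 values centred within each table. The median distance over 13748 genes was 1.51. SLC39A6 was the nearest other member, at a distance of 0.491 and rank 162, followed by SLC39A8 at 0.560 and rank 287. SLC39A9 was at 0.680 and SLC39A14 at 0.831. SLC39A13, the member with the highest change under sorafenib although it did not pass the test, was closest to DPH2, ESS2 and KIFC3 (0.128, 0.145 and 0.161). These distances describe the same libraries as the tests and add no independent evidence.

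SLC39A7, the transporter that releases zinc from the endoplasmic reticulum, was listed at 0 reads in all 12 RNA libraries. The gene lies at chr6:33200867-33204437 (GRCh38.p14). Of its 20 nearest protein-coding genes, between positions 33004182 and 33418107, 11 were also at 0 and 16 had at most 10 reads over all libraries. They included RPS18, a ribosomal protein gene, with 5 reads, RXRB with 8 and RING1 with 0. Among 750 protein-coding genes of chromosome 6 more than 5 Mb away, 25.6% had at most 10 reads and 53.6% had more than 1000. Genes used by every cell were thus listed near 0 in this stretch, and the 0 is given only as listed. The SLC39A7 promoter carried an ATAC-seq peak in every library, with fold enrichments of 5.80 and 5.08 in DMSO and 5.83 and 5.17 with sorafenib.

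Of the other SLC39 genes, SLC39A11 was the 1 with enough reads to test. It had 81.5 ± 13.5 normalized read counts under sorafenib and 113 ± 7.13 with DMSO (SD, n = 3 each), a log2 change of -0.48 (limma adjusted p = 0.0116). With MT1G-OE it had 129 ± 22.3 against 97.9 ± 6.87 with vector, a log2 difference of 0.38 that did not pass (limma adjusted p = 0.102). SLC39A2, SLC39A5 and SLC39A12 had at most 10 reads per group and were not tested.

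Zinc export and storage genes also changed with sorafenib. Of all tested genes, 34.4% rose and 35.8% fell. Of 11 zinc export genes (SLC30A1 to SLC30A10 and TMEM163), 8 SLC30 genes were tested, of which 4 rose, 3 fell and 1 did not pass (median log2 change 0.71). SLC30A1, the exporter of the plasma membrane, rose from 2479 ± 144 to 21815 ± 716 normalized read counts (SD, n = 3 each), a log2 change of 3.14 (limma adjusted p = 3.11e-16). SLC30A2 had 266 ± 5.77 against 0 reads in all 3 DMSO libraries (limma adjusted p = 2.11e-12). SLC30A3, known as the transporter that fills synaptic vesicles, rose by 1.58 on the log2 scale (limma adjusted p = 3.50e-06). Of 12 genes of zinc sensing and storage, 7 were tested and all 7 rose (median 5.52). They included the metallothioneins MT1E, MT1X and MT2A, which rose by 4.08, 6.74 and 3.35 on the log2 scale (limma adjusted p = 4.67e-17, 8.18e-17 and 2.57e-15). MTF1, named after its value was seen, rose by 0.87 (limma adjusted p = 2.10e-08). Metallothionein genes are similar in sequence. How the counting treated reads that match several of them is not given in the sources used here, so levels of single metallothionein genes may be affected.

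In the MT1G experiment, 6 exporters were tested, of which 2 rose, none fell and 4 did not pass (median 0.21). Of all genes tested there, 11.5% rose and 11.3% fell. SLC30A1 rose by 0.42 (limma adjusted p = 0.00250) and SLC30A7, a Golgi transporter, by 0.37 (limma adjusted p = 0.00744). Of 6 tested genes of zinc sensing and storage, 4 rose and 2 did not pass (median 0.64). Beside MT1G itself, which was the gene overexpressed, MT2A rose by 0.60 (limma adjusted p = 0.00270) and MT1X by 0.71 (limma adjusted p = 0.0167). MTF1 had a log2 difference of 0.27 that did not pass (limma adjusted p = 0.0535).

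Iron and manganese handling genes, listed because SLC39A8 and SLC39A14 also carry those metals, fell with sorafenib. All 7 tested of 11 listed fell (median log2 change -0.60), beside 35.8% of all tested genes. STEAP3, a reductase of endosomal iron, fell by 0.90 (limma adjusted p = 1.78e-09), HFE, a regulator of iron uptake, by 1.07 (limma adjusted p = 1.97e-08), and FTH1, the heavy chain of the iron store ferritin, by 0.62 (limma adjusted p = 3.82e-07). With MT1G-OE 2 of the 7 rose, 2 fell and 3 did not pass, beside 11.5% of all tested genes that rose and 11.3% that fell. The Golgi calcium and manganese pump ATP2C1 rose by 0.30 (limma adjusted p = 0.00848), the transferrin receptor TFRC rose by 0.29 (limma adjusted p = 0.0118), and the ferritin light chain FTL fell by 0.37 (limma adjusted p = 0.0112).

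Markers of cell types also moved. Of all tested genes, 35.8% fell and 34.4% rose with sorafenib, and 11.3% fell and 11.5% rose with MT1G-OE. The 6 tested hepatocyte and Huh7 markers all fell with sorafenib. Summed levels given here cover all listed markers of a type, tested or not. The hepatocyte and Huh7 sum lay between 35245 and 36932 normalized read counts against 55733 to 63736 in DMSO. Most of that sum came from KRT8, CPS1 and KRT18, with DMSO means of 31717, 17159 and 8834. The other tested markers were HNF4A, FOXA1 and RBP4. With MT1G-OE 3 of 6 fell, none rose and 3 did not pass (49799 to 58334 against 64029 to 70149.5 summed). Of 8 fibroblast and stellate cell markers, 5 were tested. With sorafenib COL3A1 rose, LUM and DCN fell and 2 did not pass (1041 to 1081 against 2338 to 2591 summed). Most of the DMSO sum came from LUM, with means of 447 with sorafenib and 1780 with DMSO. COL1A1, which did not pass, had means of 440 and 464. With MT1G-OE LUM and DCN rose and 3 did not pass (2644 to 3475 against 2159 to 2207). Of 5 endothelial markers 2 were tested with sorafenib, of which CDH5 fell (limma adjusted p = 0.000403) and 1 did not pass (36.3 to 57.1 against 69.4 to 79.7 summed). With MT1G-OE 1 was tested and did not pass (39.5 to 48.7 against 46.5 to 75.7). Of 5 leukocyte markers 1 was tested with sorafenib, CD14, which rose (limma adjusted p = 0.0131), and the summed level was 23.6 to 29.9 against 4.37 to 11.2. None was tested with MT1G-OE (5.85 to 11.6 against 4.67 to 8.77), and the T cell marker CD3E had 0 reads in all 12 libraries. The part of these markers in the SLC39 changes was not tested.

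ATAC-seq peaks covered SLC39 promoters in every library. RefSeq windows of 300 bases around the listed starts were found for 8 of the 10 members, all except SLC39A4 and SLC39A14. All 8 had a peak over at least 1 start in all 4 ATAC-seq libraries, as had 87.1% of tested genes with such a window. The fold enrichment of a peak at its summit is the authors' own value. At SLC39A10 it was 10.1 and 9.91 in DMSO and 10.4 and 9.46 with sorafenib. These values overlapped between groups, beside a transcript that fell to 47.9%. At SLC39A6 it was 14.2 and 15.7 in DMSO and 13.0 and 14.3 with sorafenib, and at SLC39A9 13.3 and 13.2 in DMSO and 11.6 and 11.96 with sorafenib. The SLC39A9 values were lower in both sorafenib libraries, and the median over all peaks was also lower there (5.51 and 5.56 against 6.61 and 6.95). As percentiles among all peaks of the same library, SLC39A9 overlapped (86.5 and 78.3 in DMSO, 85.1 and 86.5 with sorafenib). SLC39A10 then lay apart (71.9 and 65.5 in DMSO, 80.6 and 77.3 with sorafenib). So did SLC39A13 and SLC39A7, also higher with sorafenib, while SLC39A6 and SLC39A8 still overlapped.

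At SLC39A8 the DMSO libraries disagreed, at 8.38 and 14.7, and the sorafenib libraries lay between them at 11.9 and 10.7. The groups were apart at SLC39A3, with 6.07 and 11.5 in DMSO and 14.1 and 14.8 with sorafenib, and its transcript did not pass the test. SLC39A1 had peaks at its second listed start, at 6.92 and 6.70 in DMSO and 6.07 and 5.95 with sorafenib, and none at its first. Its percentiles went the other way, at 52.4 and 48.4 in DMSO and 56.5 and 54.7 with sorafenib. SLC39A13 likewise had peaks at its second start, at 9.38, 10.6, 11.2 and 10.4 in the same order. With 2 libraries per group the smallest two-sided exact p is 0.333, so none of these differences was tested. The share of all promoter windows whose groups lie apart was not determined.

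**Figure D4:**
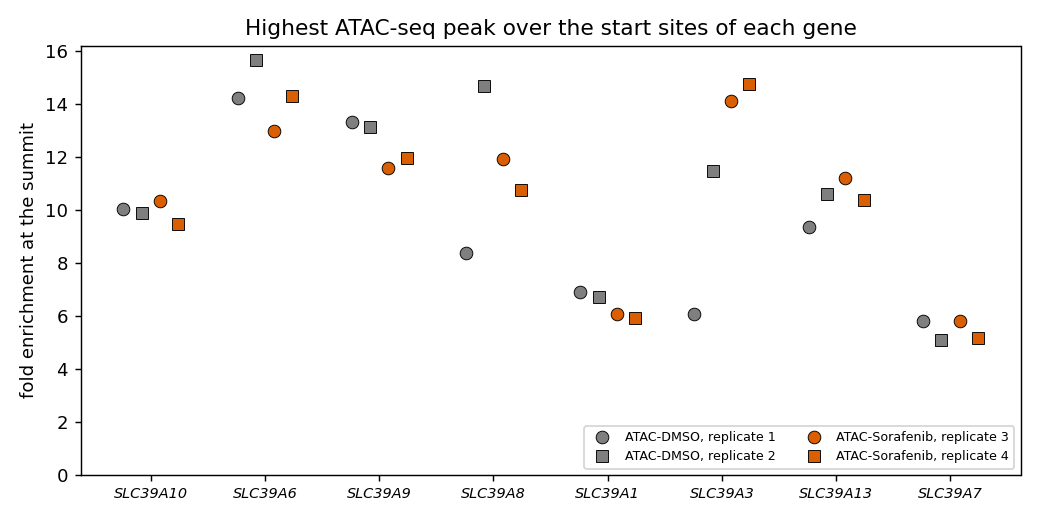
Fold enrichment at the summit of the highest ATAC-seq peak over the listed starts (vertical axis, starting at 0) for 8 SLC39 members, 1 point per library, grey for DMSO and orange for sorafenib. Groups overlap for SLC39A10, SLC39A6, SLC39A8, SLC39A13 and SLC39A7, and lie apart for SLC39A9, SLC39A1 and SLC39A3. The values are not scaled between libraries. As percentiles within each library, SLC39A10, SLC39A13 and SLC39A7 lie apart, SLC39A9 overlaps, and SLC39A1 is higher with sorafenib.

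Regions seen in both libraries of 1 ATAC-seq group and neither of the other were found at 3 of 10 members. A region was called lost when both DMSO libraries and neither sorafenib library had a peak in it, and gained in the reverse case. SLC39A10 had 2 lost regions of 8 within its span and 2 kb on each side. The first, at chr2:195620351-195621023, had fold enrichments of 9.82 and 13.4 in DMSO and lay 35935 bp from the nearest listed start. The second, at chr2:195683161-195683512, had 5.49 and 8.55 and lay 25935 bp away. The gene span begins at 195613029, nearer to the first region, but that position is not among the listed starts. Both regions lie inside the gene. SLC39A1 had 1 gained region of 218 bp (3.59 and 3.02 with sorafenib), and SLC39A14 had 1 gained region (6.24 and 5.58) and 1 lost region (5.26 and 3.55) of 15. Lost regions were thus found at 2 of 10 members and gained regions at 2 of 10, beside 32.9% and 17.7% of tested genes. Over all merged regions 12% were lost and 6.4% gained. Without ATAC-DMSO replicate 2 the count of members with either kind rose from 3 to 5.

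Motif letters were found in promoters of members that fell and of members that did not pass the test. The metal response element core (TGCACNC or TGCGCNC, both strands, within 250 bases before a start) was found in 24.8% of 35116 promoter windows. That share is per window, and the 8 members with windows had 14 windows in all. The core was found at SLC39A6, SLC39A8 (first of 3 starts) and SLC39A1 (second start), which fell with sorafenib. It was also found at SLC39A3 and SLC39A13 (second start), which did not pass the test. SLC39A10, SLC39A9 and SLC39A7 had none. A core bound by KLF factors (GGGTGTG or GGGCGTG, both strands), searched because KLF4 is named in the series title, was in 14.0% of windows and, among the members, in that of SLC39A6, on the other strand with its first printed base 139 bases before the start. A match of letters is a description and shows no binding, and no match says only that the letters are not in the window.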

How the data were processed

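Poly(A) RNA of 12 libraries and ATAC-seq of 4 were used, with groups from the sample titles. Libraries are numbered as the columns of each RNA table, which were not tied to single samples. The 10 members, gene lists and tests were chosen with earlier results of these data known. Other SLC39 genes are all named. From every other list at most 3 called genes are named, those of smallest p, with MTF1 added after its value was seen. Cell markers are also named for their read counts. One result is not reported here.

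Per the submitters' processing notes the build was hg38 and the RNA and ATAC-seq tools were MACS2 2.2.7.1, Bowtie2 2.4.1, featureCounts 1.6.1, HISAT2, DESeq2, SAMtools, Picard and cutadapt, listed without role or order. Whether counting used strand is not given in the sources used here. The RNA signal values deposited by the authors are normalized read counts, reads divided by a size factor per library. Multiplied by these factors, 100% of values were whole within 0.001. The log2 fold changes with their standard errors and the adjusted p-values in the comparison tables were computed by the authors. For peaks, the deposited ratio is the fold enrichment at the summit and the deposited −log10 q is that of the peak caller.

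Genes averaging at least 10 over 6 libraries were tested with limma 3.58.1 (R 4.3.3, trend, robust, two-sided) on log2(normalized read count + 1), so that fold changes of low genes are understated. Each RNA table was normalized separately, and levels are compared only within a table. Transcript lengths were not used, so levels are not compared between genes. The lowest chi-square per degree of freedom between 2 replicates was 3.17, so no 2 replicates agreed within sampling noise. It was 11.6, 17.0 and 19.8 for the MT1G-OE pairs and 3.85 to 6.53 for the vector pairs. Pairs with DMSO library 3 had 9.28 and 11.3. Peaks were merged when sharing at least 1 bp. Alternatives were TMM factors, no minimum mean, pseudocounts of 0.5 and 5, count tests of the recovered reads (edgeR 4.0.16 and DESeq2 1.42.0), the column number as replicate block, omission of every library in turn, and a minimum absolute log2 change of 1. The fits were also run on simulated counts with the same dispersion for every gene and group. The replicates here were less even, so that run does not measure the error of these calls.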

Additional observations from a re-analysis of the deposited data

How the results depend on the processing

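Of 117 alternative values of single members with sorafenib, 105 kept direction and call, 5 lost the call (all SLC39A1) and 7 changed sign (SLC39A3 and SLC39A13, which were never called). With MT1G-OE the counts were 92, 20 and 5 of 117, and for the difference between both responses 166 of 171, with 1 change of sign and 4 added calls. The causes were not tested. A minimum absolute log2 change of 1 left 3199 of 10484 called genes with sorafenib and 358 of 3179 with MT1G-OE, and among members 1 lower with sorafenib (SLC39A10) and 0 higher and 0 lower with MT1G-OE. Leaving out 1 library gave 1771 to 3831 called genes with MT1G-OE (1886 without vector library 2 and 1771 without vector library 3), 1 to 3 members higher (1 without vector library 3) and 0 to 2 lower. It gave 5 to 6 members lower with sorafenib, 5 to 6 with a called difference, and 3 to 5 members with a gained or lost region. The count of 2 members lower with MT1G-OE became 0 with TMM factors, 0 with DESeq2, 1 with edgeR, 1 with no minimum mean and 1 with the replicate block. Sign changes of uncalled members were these: SLC39A3 with sorafenib at 0.0203 (DESeq2), 0.0290 (edgeR) and -0.0744 to 0.0599 (leaving out 1 library), SLC39A13 with sorafenib at -0.0134 to 0.0881, and with MT1G-OE SLC39A4 at -0.0121 to 0.210, SLC39A9 at -0.0168 to 0.106 and SLC39A13 at -0.121 to 0.00167. The difference for SLC39A1 ran from -0.00997 to 0.292. The replicate block changed no other member's call. Same-numbered columns did not deviate together (correlations of -0.027, 0.029 and -0.056 with sorafenib, and of -0.14, 0.043 and -0.063 with MT1G-OE). These values showed no sign of pairing, but whether same-numbered samples were prepared together is not known. With the block 4992 genes rose and 5201 fell with sorafenib, and 1691 rose and 1566 fell with MT1G-OE. SLC39A2, SLC39A5 and SLC39A12 had too few reads at this depth to be tested, and 2 libraries per group limit the ATAC-seq values.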
